A study of Mus musculus with 48 samples.

Results

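Organic ion and drug transporters are the membrane carriers by which the kidney takes up, secretes and recovers organic anions, organic cations, urate, carnitine, conjugates and many medicines. They were defined by gene symbol as every gene of the array that begins with Slc22a, Slco, Slc17a, Slc47a, Abcb, Abcc or Abcg and whose probe was detected (detection p under 0.05) on at least 3 arrays. Of 61 such genes on the platform, 46 passed that filter and are called the members here, out of 11559 genes tested. The other 15 had no probe detected on more than 2 arrays, and they include Abcb1a, Abcc1, Abcg2, Slco1a1, Slco1a4, Slco1a6 and Slco4c1. The filter counts arrays of both diagnoses, so it did not need a gene to differ between them.

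Kidney RNA came from female mice of the NZB/W F1 cross, which with age comes down with lupus nephritis, and each mouse gave 1 Illumina MouseRef-8 v2.0 array. Nephritic mice (22 arrays) had had proteinuria over 300 mg/dl for 2 to 3 weeks and blood urea nitrogen still under 25 mg/dl, and young mice (26 arrays) were taken at 12 weeks. All kidneys were perfused with PBS, and both groups were spread over 6 Zeitgeber times (ZT), every 4 h from lights on (ZT0), so that the lights went off at ZT12. Nephritic mice numbered 5 at ZT8 and at ZT12 and 3 at each other time, and young mice numbered 6 at ZT12 and 4 at each other time, and the labels name no treatment. Nephritic mice were the older ones, so age and diagnosis cannot be told apart in any comparison between the groups.

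In the proximal tubule, carriers of the basolateral side such as OAT1 (Slc22a6), OAT3 (Slc22a8) and OCT2 (Slc22a2) bring organic anions and cations in from the blood. Carriers of the luminal side pass them on to the urine, as MATE1 (Slc47a1) and MRP2 (Abcc2) do, or recover solutes from it, as URAT1 (Slc22a12) does for urate and OCTN2 (Slc22a5) for carnitine. The Slco genes encode organic anion transporting polypeptides, and the Abcb, Abcc and Abcg genes encode pumps that use ATP, of which a few work in mitochondria or lysosomes instead of the cell surface. Clock output in kidney and liver is known to reach several of these genes through factors that bind E-box and D-box sequences.

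A low signal of Pabpc1 set 8 nephritic arrays apart from the other 14. Pabpc1, a poly(A) binding protein gene, lay at 5.94 to 6.69 log2 on the 8, at 8.20 to 9.51 on the other nephritic arrays and at 8.52 to 9.37 on young arrays. The 8 were all 3 arrays of ZT0, all 3 of ZT4, and replicate 3 of ZT16 and of ZT20, so every nephritic array of ZT0 and ZT4 was among them, and results are also given without them (ZT8, ZT12, ZT16 and ZT20 only). At ZT12, 3 nephritic and 3 young arrays carried titles of another form and are called the second ZT12 set. Their titles began with RX (nephritic) and ZT (young), codes that the labels do not explain. The other nephritic arrays of ZT12, replicates 1 and 2, were titled HIL, and the nephritic arrays of every other time CRS. In nephritic kidneys ZT12 and title form therefore cannot be told apart. The labelled tissue held its markers, with 8 of 10 proximal tubule markers tested. In nephritic kidneys 5 of those 8 were lower (28.6% of all genes) and 0 higher (36.5% of all genes). The mean of the tested proximal tubule markers lay at 8.89 to 10.12 log2 on nephritic arrays and at 9.92 to 10.26 on young arrays. Of 5 thick limb and distal tubule markers tested, 4 were lower and 0 higher, with a median difference of -0.69 log2 against -0.29 for the proximal tubule. Of 5 collecting duct markers tested, 1 was lower and 3 were higher. All 7 macrophage and myeloid markers tested were higher, with means of 6.73 to 9.08 on nephritic and 6.01 to 6.43 on young arrays, as were all 4 T cell and all 4 B and plasma cell markers. All 6 fibroblast and mural markers were higher too, and 4 of them without the 8 arrays. Because whole kidney was measured, fewer tubule cells and less RNA per tubule cell cannot be told apart, and the part of cell mixture in the values that follow was not tested.

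The first comparison asked which carriers were at another level in nephritic than in young kidneys, each of the 6 times carrying the same weight. By limma 21 of the 46 members were lower in nephritic kidneys, beside 28.6% of all genes tested, and 9 were higher, beside 36.5% of all genes. The median difference was -0.08 log2 over the members and 0.03 over all genes. Past a fold of 2 were 3 members that were lower (2.28% of all genes), Slc17a3, Slc22a19 and Slc22a4, and 1 that was higher (3.55% of all genes), Slco3a1. Without the 8 arrays, 12 members were lower (20.5% of all genes) and 2 were higher (25.8% of all genes). With a covariate for the 8 arrays in place of leaving them out, 3 were lower (14.1% of all genes) and 3 higher (19.5% of all genes). All of these were among the calls of the full set. Every nephritic array of ZT0 and ZT4 is among the 8, so the covariate was estimated within ZT16 and ZT20 alone. At each of those times 1 of 3 nephritic arrays stood apart, so values with the covariate rest on few arrays. The lower calls that ended without the 8 arrays were those of Abcb1b, Abcc3, Abcg4, Slc17a6, Slc22a5, Slc22a8, Slc22a12, Slc22a13 and Slco2a1, and with the covariate Slc17a3, Slc22a19 and Slc22a4 kept theirs. Of the higher calls, Slco3a1 and Abcg1 kept theirs under both settings and Abcb6 with the covariate.

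**Figure D1:**
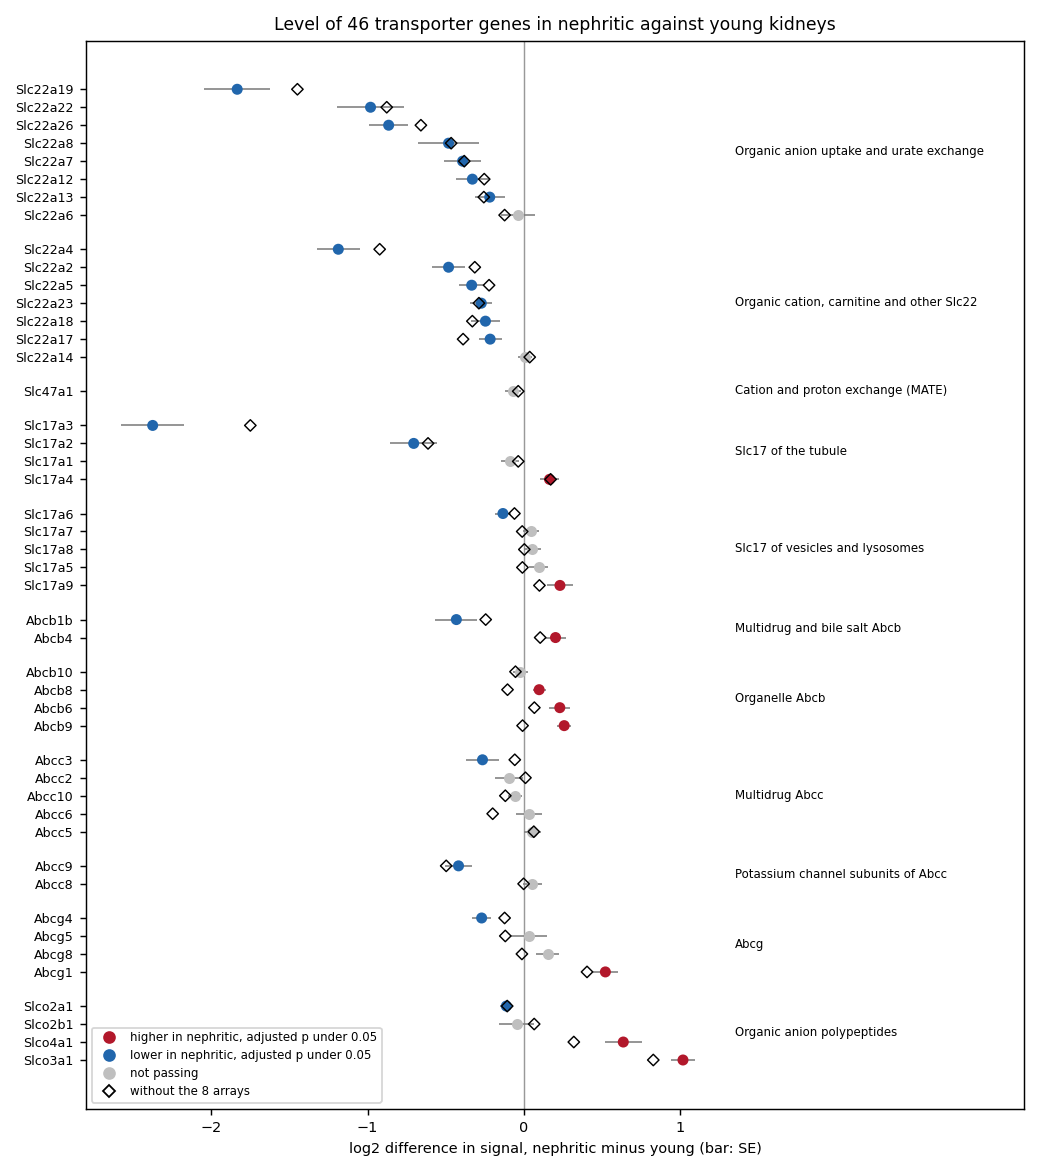
Difference in log2 signal, nephritic minus young, of each of the 46 members by role (circle with SE bar, coloured where the adjusted p passed 0.05) and the same difference without the 8 arrays that stand apart (open diamond). Most Slc22 and 3 of 4 tubule Slc17 members lie left of 0, Slc17a1 at -0.09 without passing, whereas Slco3a1, Slco4a1 and Abcg1 lie farthest to the right at 1.02, 0.64 and 0.52 log2.

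Of the uptake and exchange carriers for organic anions and urate, 7 of 8 tested members were lower in nephritic kidneys (28.6% of all genes). None was higher (36.5% of all genes), and their median difference was -0.44 log2. Without the 8 arrays that stand apart, 4 were lower (20.5% of all genes). Slc22a19, the rodent OAT5, was the most changed of these carriers (GRCm38 chromosome 19, 7673075 to 7711310). Its log2 signal ran from 6.75 to 11.08 with a mean of the time means of 9.43 in nephritic kidneys, against 10.78 to 11.71 with a mean of 11.27 in young kidneys. That is a difference of -1.83 ± 0.21 log2 (SE), 3.57-fold, with an adjusted p of 1.04e-09 in limma, and -1.45 without the 8 arrays (4.51e-05). The dimmer probes of Slc22a19 were also lower in nephritic kidneys, at -3.19 and -0.66 log2.

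Slc22a22, which in mice encodes the prostaglandin transporter OAT-PG (chromosome 15), had a lowest, median and highest log2 signal of 6.24, 9.56 and 10.27 in nephritic kidneys, against 9.70, 10.19 and 10.78 in young kidneys. Of 22 nephritic arrays 14 lay below every young array, and the lowest of them, 6.24 and 7.14, were the ZT12 arrays outside the second set. The difference was -0.98 ± 0.21 log2 (adjusted p = 0.000108 in limma) and -0.88 without the 8 arrays (0.0161). Slc22a26, a neighbouring gene of Slc22a19 on chromosome 19 (7780094 to 7802667), had 4.75, 5.30 and 6.83 in nephritic kidneys against 5.59, 6.53 and 7.04 in young kidneys, also with 14 nephritic arrays below every young one. It was lower by 0.87 log2, with an adjusted p of 9.54e-08 in limma. Probes for such close relatives may share transcripts, which was not tested.

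Slc22a6 and Slc22a8, the genes of OAT1 and OAT3, are neighbours on chromosome 19 with 6160 bases between them. The bases before their RefSeq starts are shown because both hold the same letters, part of a site of the liver-enriched factor HNF1 (GTTAAT, searched on both strands and printed in capitals), 56 and 81 bases before the start. For Slc22a6 the whole 250 bases (chr19:8617746-8617995, plus strand, GRCm38.p6) are given, and for Slc22a8 30 bases around the motif (chr19:8593089-8593118, plus strand), since that window lies inside the annotated gene.
Slc22a6: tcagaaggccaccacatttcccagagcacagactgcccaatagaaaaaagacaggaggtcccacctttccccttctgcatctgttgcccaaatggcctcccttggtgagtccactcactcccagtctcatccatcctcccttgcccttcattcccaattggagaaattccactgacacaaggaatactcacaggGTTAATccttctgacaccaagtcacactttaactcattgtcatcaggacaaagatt
Slc22a8: cccctgccggatGTTAATcttccaaagaaa
In the 250 bases before the start, these letters were found for 2 of 35 members with a RefSeq sequence, which are these 2 genes, and for 6.43% of 32851 windows of the same length over all genes.

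Slc22a6 lay between 9.75 and 12.23 log2 in nephritic kidneys, against 11.22 to 12.01 in young kidneys. Its difference of -0.04 ± 0.11 log2 did not pass (adjusted p = 0.775 in limma), and 3 of the 8 arrays that stand apart, at 12.23, 12.18 and 12.04, lay above every young array. At ZT12 the difference of Slc22a6 was 0.03 (0.921) in the second set and -1.70 in the other arrays. Without the second set its level did pass. Slc22a8 lay between 5.09 and 8.41 in nephritic kidneys, against 7.41 to 8.56 in young kidneys, a difference of -0.48 ± 0.19 log2 (adjusted p = 0.0289). That call was lost without the 8 arrays (-0.46, adjusted p = 0.163). It was also lost in 4 of the fits that left out 1 array, namely nephritic ZT0 replicate 3 (0.0566), ZT4 replicate 1 (0.0508), ZT16 replicate 3 (0.0706) and ZT20 replicate 2 (0.0517). Both genes had their lowest nephritic values on the same arrays: replicates 1 and 2 of ZT12 read 10.25 and 9.75 for Slc22a6 and 5.40 and 5.09 for Slc22a8.

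Of the remaining anion carriers, Slc22a7 (OAT2) was lower by 0.39 log2 (adjusted p = 0.00380 in limma), but differed by -0.01 (0.974) with a covariate for the 8 arrays. Slc22a12, the urate exchanger URAT1, was lower by 0.33 log2 (0.00634), and its difference was -0.25 (0.0581) without the 8 arrays and 0.02 (0.950) with a covariate for them. Slc22a13, a nicotinate and urate exchanger, differed by -0.22 log2 (0.0456) at the bright probe used. That call was lost in 28 of the fits that left out 1 array, with an adjusted p of up to 0.136. The other probes of Slc22a13 gave -1.73 and -1.66, so that the size depends on the probe.

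The lower members among the organic cation and carnitine carriers and the other Slc22 genes were 6 of 7 (28.6% of all genes). The higher ones were 0 (36.5% of all genes), and the median was -0.27 log2. Without the 8 arrays 5 were lower (20.5% of all genes). Slc22a4 encodes OCTN1, the carrier of ergothioneine, and lies beside the gene of OCTN2, Slc22a5, on chromosome 11 (53983115 to 54030040). All 22 nephritic arrays were below the young mean of their own time. Nephritic arrays read 5.19, 6.12 and 6.92 at ZT0 and between 6.05 and 8.10 at ZT12, against 7.57 to 7.80 at ZT0 and 8.19 to 8.62 at ZT12 in young kidneys. The difference was -1.19 ± 0.14 log2, 2.28-fold (adjusted p = 1.27e-09 in limma), and -0.92 without the 8 arrays (0.000106). Of the 35 members with a RefSeq sequence, Slc22a4 was also the 1 with a full E-box (CACGTG) in the 250 bases before the start, which is shown in capitals within the 30 bases around it (chr11:54028315-54028344, minus strand, GRCm38.p6), 228 bases before the start.
Slc22a4: cgctctccctccCACGTGgggccgagaaag
An E-box was present in 6.02% of the windows of all genes, and this window also lies inside the annotated gene, from which longer transcripts start.

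Slc22a2, the gene of OCT2, averaged 8.76 log2 in nephritic and 9.25 in young kidneys, a difference of -0.48 ± 0.10 (adjusted p = 8.41e-05 in limma) that was -0.31 without the 8 arrays (0.0273). Slc22a5 was lower by 0.33 log2 (0.000304), and its dimmer probes were lower by 0.48 and 0.46. The call was lost without the 8 arrays (-0.22, 0.0505) and with the covariate (-0.23, 0.177). Slc22a23, an orphan of the family, was lower by 0.27 (0.000735). Slc22a17, a receptor for lipocalin 2, was lower by 0.22 (0.0107) and Slc22a18, a further orphan, by 0.25 (0.0184). Slc22a14 was near background and did not pass (0.901).

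Slc47a1, which encodes MATE1, the luminal exchanger that hands cations to the urine, averaged 13.15 log2 in nephritic and 13.22 in young kidneys. The difference at this probe, -0.07 ± 0.05, did not pass (adjusted p = 0.250 in limma). Within the second ZT12 set it was 0.15 (0.431) and in the other ZT12 arrays -0.33, and without the second set it passed. Slc47a1 was measured by 3 probes, and the dimmer ones, detected on all 48 arrays, gave -0.88 ± 0.11 each with adjusted p of 2.36e-09 and 7.95e-09 over all probes. The probes of this gene therefore gave different answers, and which of them follows the transcript was not tested.

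Among the Slc17 genes of the tubule, Slc17a3 had the largest difference of all members. It encodes NPT4, a voltage-driven carrier of urate and organic anions, and lies in a row with Slc17a2, Slc17a1 and Slc17a4 on chromosome 13 (23836922 to 23860718). Its nephritic arrays read 7.28, 7.24 and 7.79 at ZT0, 5.40, 5.67 and 6.68 at ZT4, 7.68 to 8.79 at ZT8, 6.11 to 10.15 at ZT12, 8.62, 8.47 and 6.78 at ZT16 and 8.81, 7.98 and 8.36 at ZT20, whereas young arrays lay between 8.88 and 10.55. The difference was -2.37 ± 0.20 log2, 5.19-fold (adjusted p = 8.25e-13 in limma), and -1.75 without the 8 arrays (1.68e-05). Within the second ZT12 set, the means of Slc17a3 were 9.38 in nephritic and 9.30 in young kidneys, a difference of 0.09 (adjusted p = 0.927), while the other ZT12 arrays gave 6.47 in nephritic and 10.22 in young kidneys. The dimmer probes of Slc17a3 were lower by 0.84 and 0.55 log2.

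The smaller size within the second ZT12 set was shared by other lower members. In that set the difference was -0.27 for Slc22a19 (adjusted p = 0.466 in limma), -0.47 for Slc22a22 (0.180), -0.73 for Slc22a4 (0.169) and -0.20 for Slc22a8 (0.491), while the other ZT12 arrays gave -2.44, -3.79, -2.34 and -3.01. Of the 21 lower members, 19 had a less negative or a positive difference in the second set, but by little for Slc22a26, at -1.30 (0.00123) against -1.35, and Abcc3, at -0.80 (0.0421) against -0.84. In the second set 7 members were lower (2.74% of all genes) and 0 higher (3.72% of all genes), with 3 arrays of each diagnosis. On the nephritic side the other ZT12 arrays were replicates 1 and 2 alone.

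Slc17a2 (NPT3) averaged 6.67 log2 in nephritic and 7.37 in young kidneys and was lower by 0.70 ± 0.15 (adjusted p = 8.58e-05 in limma). Slc17a1 (NPT1) was near background, detected on 11 nephritic and 15 young arrays, and did not pass (-0.09, 0.161). Slc17a4 differed by 0.16 (0.0170) at levels near background. The vesicular and lysosomal Slc17 genes were mostly near background. Of these 5, 1 was higher (Slc17a9, a nucleotide carrier, 0.23), beside 36.5% of all genes. Slc17a6, a vesicular glutamate carrier, was the 1 that was lower (-0.13), beside 28.6% of all genes. Both calls were lost without the 8 arrays (0.10, adjusted p = 0.452, and -0.06, 0.438). Slc17a5, the lysosomal sialic acid carrier, was detected on every array and its difference of 0.10 did not pass (0.169).

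**Figure D2:**
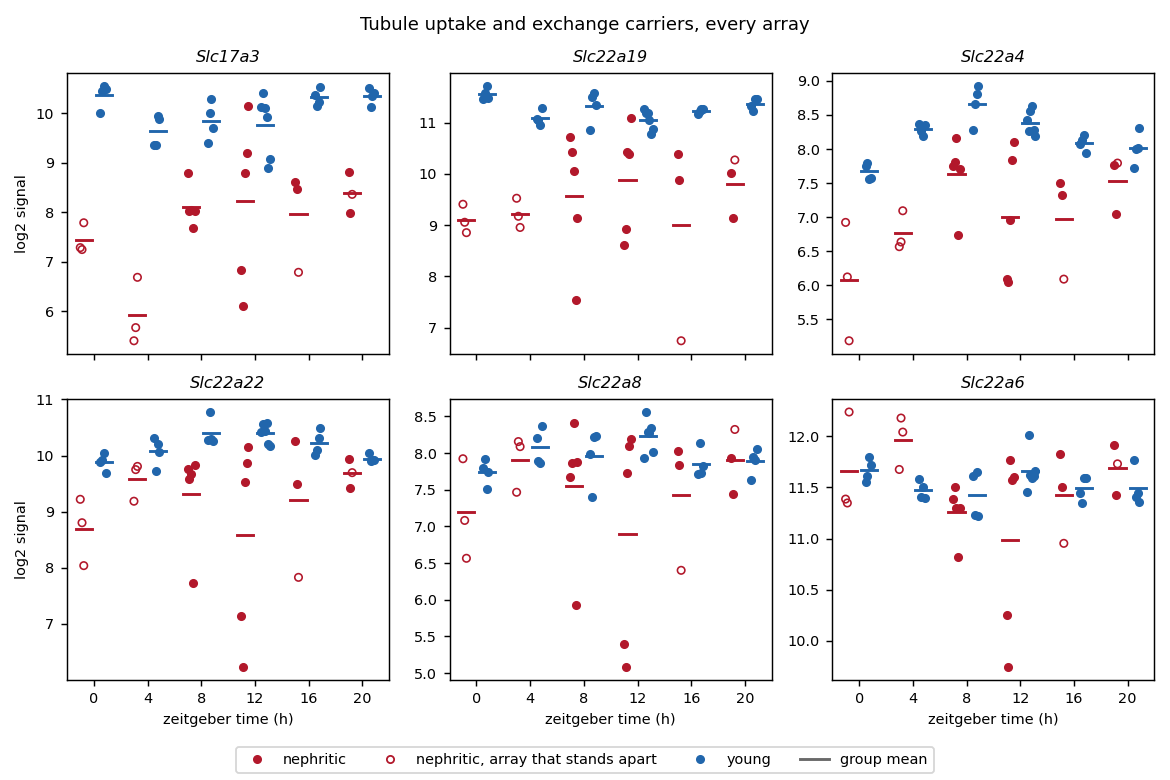
Log2 signal of 6 uptake and exchange carriers on every array by Zeitgeber time, nephritic left (open circles for the 8 arrays that stand apart) and young right at each time, with bars for group means. Slc17a3, Slc22a19 and Slc22a4 are lower at every time, whereas Slc22a6 overlaps with the young arrays except on a few nephritic arrays such as 9.75 and 10.25 at ZT12.

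The nephritic kidneys were uneven, and the same arrays were low for many members. On replicates 1 and 2 of ZT12, 29 and 26 of the 46 members lay below every young array, on replicate 3 of ZT16 (among the 8) 23, and on replicate 4 of ZT8 20. On those 4 arrays 21.4%, 22.4%, 22.6% and 18.9% of all genes lay below every young array. The other 18 nephritic arrays had 3 to 15 members below (6.40% to 28.4% of all genes, so up to a higher share than on the 4), and a young array had 0 to 5 members below all other young arrays (1.75% to 7.37% of all genes). The 4 arrays also had the lowest means of the proximal tubule markers of all 48, at 8.97, 8.90, 9.27 and 8.89, and myeloid marker means of 8.43, 9.08, 8.96 and 7.82. What part the markers' cell types had in the transporter values was not tested.

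**Figure D3:**
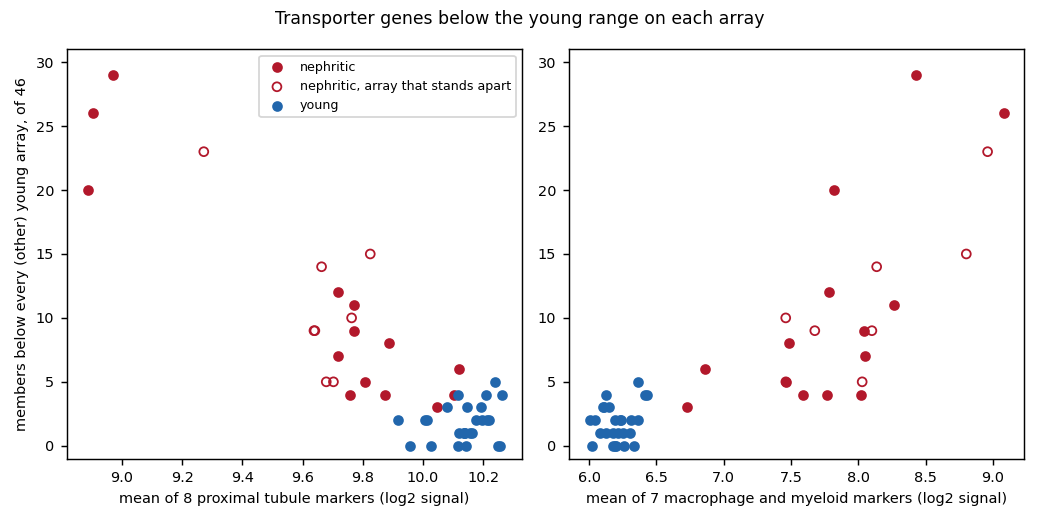
Number of the 46 members whose signal on an array was below every young array (every other young array for the young ones), against the array's mean of 8 proximal tubule markers (left) and of 7 macrophage and myeloid markers (right), in log2. The arrays with 20 to 29 members below sit at the lowest tubule marker means of 8.89 to 9.27, and the young arrays sit at 0 to 5.

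Among the organic anion transporting polypeptides, 2 of 4 were higher (36.5% of all genes) and 1 was lower (28.6% of all genes). Without the 8 arrays 1 was higher (25.8% of all genes) and 0 were lower (20.5% of all genes). Slco3a1, a widely expressed carrier of prostaglandins and thyroid hormone (chromosome 7), was the member with the largest rise. It had a lowest, median and highest log2 signal of 7.85, 8.59 and 9.13 in nephritic kidneys, against 7.14, 7.55 and 8.37 in young kidneys, and 17 of 22 nephritic arrays lay above every young array. The difference was 1.02 ± 0.08, 2.02-fold (adjusted p = 4.06e-14 in limma), 0.83 without the 8 arrays (9.86e-07) and 0.13 within the second ZT12 set (0.630). The dimmer probes of Slco3a1 gave 0.20 (0.0463) and 0.13 (0.326, not passing).

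Slco4a1, a thyroid hormone carrier, had 8.27, 9.53 and 10.08 in nephritic kidneys against 8.07, 8.76 and 9.36 in young kidneys, a difference of 0.64 ± 0.12 (adjusted p = 1.11e-05 in limma) that was 0.32 without the 8 arrays (0.0672). Slco2a1, the prostaglandin carrier, was lower by 0.11 (0.0204), and Slco2b1 did not pass (0.739).

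Of the pumps that use ATP, Abcg1, which moves cholesterol out of macrophages and other cells, had 5.09, 5.97 and 6.74 in nephritic kidneys against 4.91, 5.44 and 6.06 in young kidneys, with 10 nephritic arrays above every young one. It was higher by 0.52 ± 0.08 (adjusted p = 4.38e-07 in limma) and by 0.40 without the 8 arrays (0.00135). Abcb1b, a P-glycoprotein gene, was lower by 0.43 ± 0.14 (0.00511), which was -0.24 without the 8 arrays (0.236) and 0.35 within the second ZT12 set (not passing). Abcc9, a potassium channel subunit of vessels and muscle, was lower by 0.42 ± 0.08 (3.48e-05) and by 0.50 without the 8 arrays (0.000486).

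The multidrug pumps of the Abcc group differed little at the probes used. Abcc2 (MRP2), the luminal pump for conjugates, averaged 8.49 log2 in nephritic and 8.59 in young kidneys and did not pass (-0.09, adjusted p = 0.376 in limma), although its dimmer probe was lower by 0.65. At ZT12 the difference of Abcc2 was 0.48 (0.0947) in the second set and -1.14 in the other arrays. Without the second set its level did pass. Abcc3 (MRP3), a basolateral pump for conjugates, differed by -0.26 (0.0312), which was -0.06 without the 8 arrays (0.716). Abcc5, Abcc6 and Abcc10 did not pass. The sterol pumps Abcg5 and Abcg8 were near background and did not pass. Abcg4, detected on 3 nephritic and 16 young arrays, was lower by 0.27 (0.000245). Abcb4 was higher by 0.20 (0.0101), near background. The organelle pumps Abcb6, Abcb8 and Abcb9 were higher by 0.23, 0.10 and 0.26. The call of Abcb8 (adjusted p = 0.0415 over all probes) was lost in 18 of the fits that left out 1 array, and its dimmer probes gave 0.04 (0.539) and, in the opposite direction, -0.13 (0.0396). Abcb8 and Abcb9 were at -0.10 (0.105) and -0.01 (0.914) without the 8 arrays. Abcb6 was then at 0.07 (0.425).

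The second comparison asked which carriers vary over the day in young kidneys. By limma 20 of 46 members varied with time, beside 18.3% of all genes tested. Their highest means fell at ZT0 for 5 members, ZT4 for 1, ZT8 for 6, ZT12 for 6, ZT16 for 2 and ZT20 for 0, and of all genes that varied 19.4%, 18.5%, 20.7%, 23.3%, 11.6% and 6.63% peaked at these times. The range of the time means ran from 0.34 to 0.99 log2 over these 20 members with a median of 0.50, and the median over all genes that varied was 0.49. A 24 h cosine passed for 16 of 46 members (19.8% of all genes). In young mice nearly every time was carried by its own title code, so a code and a time cannot be told apart, and 9 members passed when the code was fitted as a random block (9.28% of all genes). Without young ZT0 replicate 3 the count was 12.

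Slc22a4 had the widest range of these members, with time means of 7.67, 8.29, 8.67, 8.39, 8.09 and 8.01 log2 from ZT0 to ZT20 in young kidneys. All 4 young arrays of ZT8 (8.28, 8.66, 8.80 and 8.93) lay above all 4 of ZT0 (7.75, 7.80, 7.57 and 7.58). The range was 0.99 (adjusted p = 5.02e-05 in limma), and a 24 h cosine gave an amplitude of 0.39 ± 0.06 (SE) with its crest at 9.36 h. In nephritic kidneys the time means of Slc22a4 were 6.08, 6.77, 7.63, 7.01, 6.98 and 7.53, with the highest also at ZT8, and the spread at a time reached an SD of 0.95. There, time did not pass (0.169), and the test of a different time course did not pass either (0.415). Both passed for Slc22a4 without the second ZT12 set, where the HIL arrays alone stand for nephritic ZT12.

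Slco3a1 had young time means of 7.48, 7.21, 7.44, 8.09, 7.86 and 7.46 from ZT0 to ZT20, a range of 0.88 (adjusted p = 1.34e-05 in limma). At ZT12 the 3 young arrays of the second set read 8.15, 8.37 and 8.34 and the others 7.82, 8.05 and 7.80, all of them above every young array of ZT0, ZT4, ZT8 and ZT20. Of its dimmer probes, the one with a mean of 6.52 also varied, with its highest mean at ZT16 (0.000615). The dimmest, with a mean of 4.91, did not pass (0.506). In nephritic kidneys the time means of Slco3a1 were 8.69, 8.70, 8.23, 8.66, 8.88 and 8.50, time did not pass (0.304), and neither did the difference in time course (0.0624).

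Slc22a12, the gene of URAT1, ran the other way through the day. The young time means were 10.74, 10.66, 10.59, 10.11, 10.33 and 10.62 from ZT0 to ZT20, with an adjusted p of 1.78e-05 in limma. The 6 young arrays of ZT12 (9.93 to 10.24) lay below all 4 of ZT0 (10.72 to 10.77). The cosine had an amplitude of 0.30 ± 0.04 with its crest at 1.12 h. Nephritic time means of Slc22a12 were 10.58, 10.38, 10.29, 9.49, 9.83 and 10.49, also lowest at ZT12, and time did not pass (0.138). It did pass without the second ZT12 set.

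The carnitine carrier gene Slc22a5 was highest at ZT12 in young kidneys with a range of 0.35 (adjusted p = 0.00622 in limma). Its next brightest probe also passed with the same peak (0.00405), but its dimmest probe did not pass (0.573). Slc22a22 peaked at ZT8 with a range of 0.51 (0.00800), and Slc22a23 peaked at ZT8 with a range of 0.58 (0.00313). Of the other anion carriers, Slc22a19 and Slc22a26 were highest at ZT0 (0.0199 and 0.0336), while Slc22a6, Slc22a7 and Slc22a8 did not pass. Slc17a3 missed the threshold at 0.0503, with a range of 0.74.

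All 4 Slco members varied with time in young kidneys, beside 18.3% of all genes. Besides Slco3a1, Slco2a1 and Slco2b1 were highest at ZT12 (adjusted p = 0.0161 and 0.0240 in limma) and Slco4a1 at ZT16 with a range of 0.77 (0.0221). Among the pumps, Abcb8 was highest at ZT12 with a range of 0.37 (0.00546), Abcc5, which exports cyclic nucleotides, at ZT0 with a range of 0.48 (0.00882), and Abcg1 at ZT16 with a range of 0.53 (0.0182). Abcb6, Abcc10 and Slc22a13 passed narrowly (0.0431, 0.0483 and 0.0489), and Abcg4, Abcg5 and Slc17a4 passed near background. At the probes used, the drug carriers Slc22a2, Slc47a1, Abcb1b, Abcc2 and Abcc3 did not pass, with ranges of 0.34, 0.18, 0.52, 0.27 and 0.50. The dimmer probes of Slc47a1 did pass, with ranges of 0.446 and 0.455 (adjusted p = 0.0467 and 0.0302 in limma over all probes). So did the dimmer probe of Abcc2, with a range of 0.63 (0.0245). For these 2 genes the answer therefore depends on the probe. In all, 10 of the 20 calls held in every fit that left out 1 young array, those of Abcb8, Abcc5, Slc22a4, Slc22a5, Slc22a12, Slc22a22, Slc22a23, Slco2a1, Slco3a1 and Slco4a1.

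**Figure D4:**
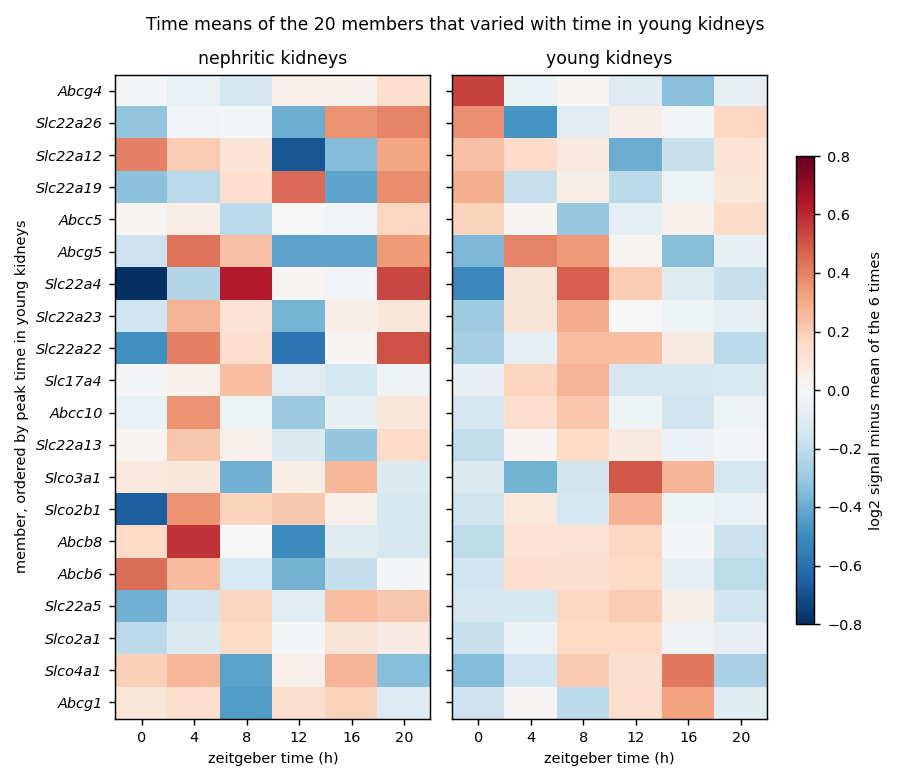
Time means of the 20 members that varied with time in young kidneys, each minus its mean over the 6 times (log2, colour), in nephritic kidneys (left) and young kidneys (right), ordered by peak time in young kidneys. In young kidneys 5 members are highest at ZT0, 6 at ZT8 and 6 at ZT12, and in nephritic kidneys 6 of the 20 (30%, against 25.6% of all genes that varied in young kidneys) have their highest mean at the same time.

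In nephritic kidneys 6 of 46 members varied with time, beside 17.2% of all genes: Abcb6, Abcb8, Abcb9, Abcb10, Abcc6 and Abcc10. Their highest means were at ZT0 for 2 and at ZT4 for 4, the times at which every nephritic array stands apart. Without the 8 arrays 0 members passed (0.0433% of all genes), and 0 passed with a covariate for them (0.242% of all genes). All 4 organelle pumps of the Abcb group were among the 6. The spread of nephritic arrays was wider, with a median residual SD over members of 0.36 log2 against 0.17 in young kidneys, and 14 of the 20 members above had a wider range of time means in nephritic kidneys, as had 72.9% of all genes that varied in young kidneys. That a rhythm did not pass there does not show that it was absent.

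The third comparison tested whether the time course itself differed between the diagnoses. It did for 7 members, beside 21.3% of all genes: the same 6 and Abcg4. Abcb8, a pump of the inner mitochondrial membrane, had the smallest p. Its nephritic arrays read 8.24, 8.04 and 8.41 at ZT0 and 8.53, 8.73 and 8.70 at ZT4, above 7.67 to 7.88 and 7.89 to 8.23 in young kidneys. At ZT12 the direction was opposite, with 7.38 to 7.67 on all 5 nephritic arrays against 7.96 to 8.31 on all 6 young arrays. The adjusted p was 3.34e-06 in limma, 0.0280 without the 8 arrays and 0.00528 with a covariate, and Abcb8 was the 1 member that passed each of these (0.502% and 2.01% of all genes). Within the second ZT12 set its difference was -0.53 (0.0379) and in the other ZT12 arrays -0.65.

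Abcb9, a lysosomal peptide transporter, read 6.70, 6.85 and 6.91 at ZT0 and 7.04, 7.13 and 7.33 at ZT4 in nephritic kidneys, against 6.18 to 6.42 at ZT0 and no more than 6.42 at ZT4 in young kidneys (interaction adjusted p = 1.07e-05 in limma). At the other times the nephritic arrays lay between 6.07 and 6.75 and overlapped with the young ones. Without the 8 arrays the interaction of Abcb9 did not pass (0.322). Abcb6, a porphyrin transporter, read 8.73, 8.16 and 9.28 at ZT0 in nephritic kidneys, against 7.71 to 8.16 in young kidneys (0.00318, and 0.127 without the 8 arrays).

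Abcb10, a mitochondrial pump needed in heme synthesis, was lowest at ZT12 in nephritic kidneys, at 6.51 to 6.97 against 6.98 to 7.31 in young kidneys, with no overlap (adjusted p = 0.0116 in limma, and 0.0784 without the 8 arrays). Abcc6, a pump known for its link with soft tissue calcification, read 6.48, 6.88 and 6.78 at ZT4 in nephritic kidneys against 5.78 to 5.97 in young kidneys (0.00512, and 0.515 without the 8 arrays). Abcc10 gave 0.0288 and Abcg4, near background, 0.0231.

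**Figure D5:**
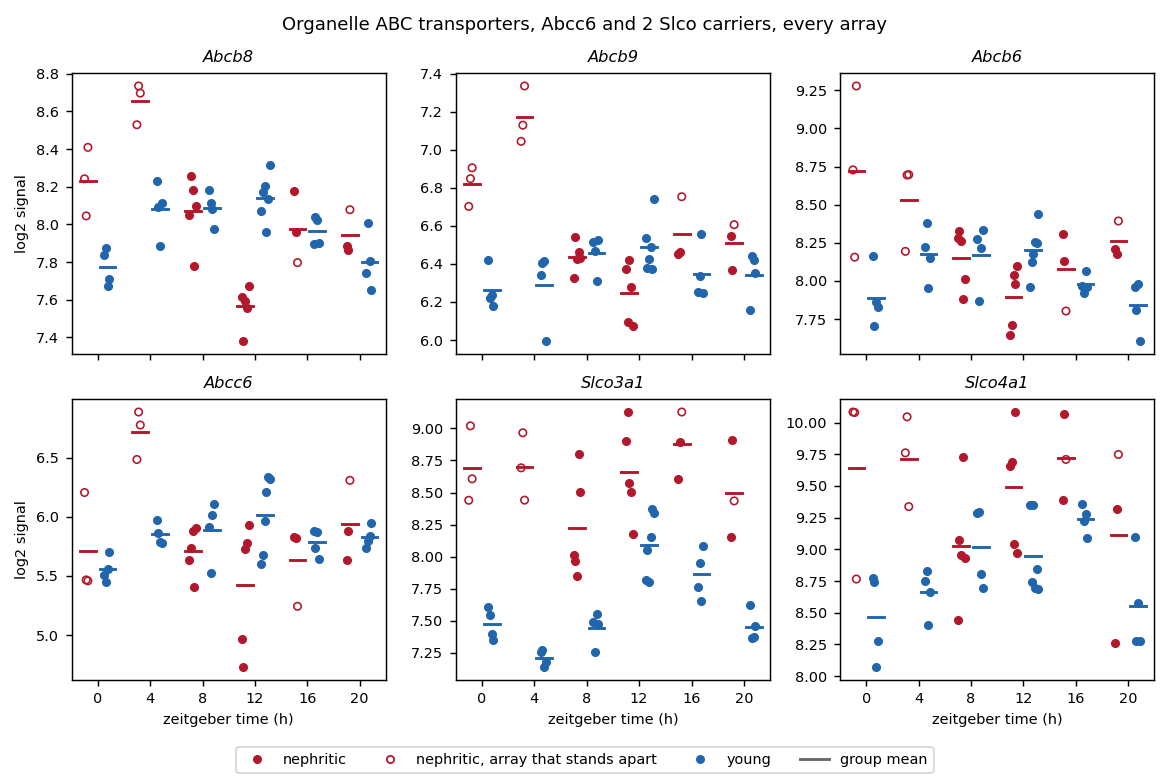
Log2 signal of 3 organelle pumps, Abcc6 and 2 Slco carriers on every array by Zeitgeber time, nephritic left (open circles for the 8 arrays that stand apart) and young right, with bars for group means. Abcb8 and Abcb9 are highest at ZT4 on nephritic arrays that stand apart (8.53 to 8.73 and 7.04 to 7.33), Abcb8 is below all young arrays at ZT12, and Slco3a1 is above the young mean of its time on all 22 nephritic arrays.

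Several members lie beside each other in the genome, and whether neighbours changed together was not tested. Of 6 members on chromosome 19, 4 were lower (45.7% of all members and 28.6% of all genes), the neighbours Slc22a19 and Slc22a26 among them. The others, Slc22a8 and Slc22a12, did not pass without the 8 arrays (adjusted p = 0.163 and 0.0581 in limma). On chromosome 11 both Slc22a4 and its neighbour Slc22a5 were lower, but Slc22a5 did not pass without the 8 arrays (0.0505). In the row of 4 Slc17 genes on chromosome 13 the lower ones, Slc17a2 and Slc17a3, lie side by side. RefSeq windows were matched for 35 members. Besides the motifs above, a D-box (TTATGNAA) was found before 2 members (Slc17a1 and Slc17a8) and 3.07% of all windows, a ROR element (TAGGTCA) before 1 (Slc17a1) and 2.23%, an antioxidant response element (TGACNNNGC) before 3 (Abcc2, Abcc10 and Slc17a8) and 10.2%, and the HNF4 letters CAAAGTCCA before 0 and 0.384%. All were searched on both strands. Of the 15 matched members that varied with time in young kidneys, 1 held an E-box and 0 a D-box. A match is a description of the letters and no evidence of binding.

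Genes that work beside these carriers were counted from a list of companion carriers and scaffold proteins, of which 16 of 22 were tested. In nephritic kidneys 6 were lower (28.6% of all genes) and 3 higher (36.5%), and 10 varied with time in young kidneys (18.3%). Slc15a2, the peptide carrier that also recovers some antibiotics, was lower by 0.95 log2 (adjusted p = 1.08e-08 in limma), Slc13a2, a dicarboxylate carrier, by 0.61 and Slc13a3, which supplies the dicarboxylate that OAT1 and OAT3 exchange, by 0.53. Leaving out the 8 arrays gave -0.35 (0.0152), -0.58 (0.00988) and -0.34 (0.210), and none of them passed with the covariate (0.209, 0.185 and 0.769). Slc29a1 and Slc29a3, nucleoside carriers, were higher by 0.45 and 0.35. Pdzk1, a scaffold of luminal carriers, was lower by 0.15, a call that was lost without the 8 arrays (0.0509).

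Of 15 transcription factors known to act on drug transporter genes, 11 were tested, with 3 higher (Keap1 by 0.44, Nr1h3 by 0.39 and Bcl6 by 0.32) and 2 lower (Nfe2l2 by 0.63 and Nr1i2 by 0.19), beside the 36.5% and 28.6% of all genes. The calls of Bcl6 (0.12, adjusted p = 0.512) and Nr1i2 (-0.04, 0.707) were lost without the 8 arrays. Hnf4a, also a proximal tubule marker, did not pass (-0.07, adjusted p = 0.349 in limma). Nfe2l2 encodes the sensor-controlled factor NRF2 and Keap1 its inhibitor. Of 8 PAR bZIP and clock factors, 7 varied with time in young kidneys (18.3% of all genes) and 6 in nephritic kidneys (17.2%). Without the 8 arrays 2 of those 6 passed, Nr1d1 (0.0189) and Dbp (0.0397). Dbp, whose protein binds the D-box, had a range of 4.82 in young kidneys and its highest mean at ZT8.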

How the data were processed

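The authors scanned the Illumina arrays with GenomeStudio and deposited, for each probe, a signal intensity on a linear scale, whose median ranged from 98.1 to 117.9 since no between-array normalization had been applied, and a detection p-value against the negative control beads. They also deposited a processed, between-array normalized intensity table, which served as an alternative. The signals went through neqc of limma 3.58.1 in R 4.3.3, that is normexp background correction (offset 16), quantile normalization and log2. Among probes detected on at least 3 arrays, the one with the highest mean stood for its gene, and 12706 to 14077 probes were detected per array. The number of arrays limits the precision.

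Time courses were tested by limma's F-test over 6 times within each diagnosis, levels by the mean difference over the 6 times from 12 group means, and a differing time course by the 5 interaction terms. P-values were adjusted by Benjamini-Hochberg over 11559 genes (threshold 0.05), and those of single probes over all kept probes. Values after ± are SE unless named SD. The cosine had a period of 24 h. Replicates were numbered in the order listed, and p-values measure the spread between these mice, each on 1 array. The scripts were tested on simulated data with 200 changed genes.

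Members, role groups and lists were chosen with earlier results of these data known. Named were the carriers most used in the field and, among members that passed, the 10 with the widest time range in young kidneys. All 6 that varied with time in nephritic kidneys were named too. The rest were the 10 lower members with the largest difference, all 9 higher members and the 5 with the smallest interaction p. Genes were placed by the RefSeq table of GRCm38.p6, in which all 46 members matched, and 35 had a start-site sequence. Alternatives were other scalings, offsets, detection filters and probes, array weights, title code as a random block, the ZT12 sets apart, the 8 arrays left out or as a covariate, a 24 h cosine, and each array left out in turn.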

Additional observations from a re-analysis of the deposited data

Results flagged for a closer look

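Of 88 groups of 4 to 6 arrays examined, 2 held an array far from the rest, both for Slc22a22, and chance alone gives about 1 in 20. The members examined were Abcb6, Abcb8, Abcb9, Abcb10, Abcc6, Abcg1, Slc22a4, Slc22a22, Slc22a26, Slco3a1 and Slco4a1. Other members, Slc17a3, Slc22a6, Slc22a8 and Slc22a19 among them, were not examined in this way. Replicate 4 of nephritic ZT8 read 7.72 log2, below the next value of 9.58, and replicate 2 of young ZT8 read 10.8, above the next value of 10.3. The nephritic array is 1 of the 4 on which 20 or more members lay below every young array.

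The time course differed between nephritic and young kidneys for 7 members by the interaction test in limma. The adjusted p was 3.34e-06 for Abcb8, 1.07e-05 for Abcb9, 0.00318 for Abcb6, 0.00512 for Abcc6, 0.0116 for Abcb10, 0.0231 for Abcg4 and 0.0288 for Abcc10. Without the 8 arrays that stand apart, Abcb8 alone of these passed (0.0280).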

How the results depend on the processing

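No paired analysis was possible, since each mouse was taken at 1 time and gave 1 array. Counts of members were within 1.5 times of those reported with the deposited normalized table, an offset of 50, both other detection filters, the next brightest probe and the 24 h cosine. Members varying with time in young kidneys were 9 with the title code as a block and 12 to 22 when 1 array was left out (12 without young ZT0 replicate 3). Members varying with time in nephritic kidneys were 0 with the covariate, 0 without the 8 arrays, 12 without the second ZT12 set and 3 to 7 when 1 array was left out (3 without nephritic ZT4 replicate 2). Members higher in nephritic kidneys were 3 with the covariate, 2 without the 8 arrays, 5 with the code as a block, 0 within the second ZT12 set and 8 to 10 when 1 array was left out. Members lower were 3, 12, 13 and 7 under those settings and 17 to 22 when 1 array was left out. Members with a differing time course were 13 with median-scaled signals, 17 without the second ZT12 set, 1 with the covariate, 1 without the 8 arrays, 4 with array weights, 2 with the code as a block and 6 to 12 when 1 array was left out (11 without nephritic ZT0 replicate 1 and 12 without nephritic ZT16 replicate 3). The causes were not tested, and fits without the 8 arrays hold fewer times. The share of all genes was not counted without the second ZT12 set, with array weights or with 1 array left out. Nor was it counted for levels and differing time courses with the code as a block, or for differing time courses with median-scaled signals. Counts under those settings therefore cannot be read against all genes. The covariate was estimated within ZT16 and ZT20 alone.

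The direction of a called difference was opposite for Abcb4 (-0.0256) and Slc22a12 (0.0169) with the covariate, for Abcb8 (-0.10) and Abcb9 (-0.00818) without the 8 arrays, and within the second ZT12 set for Abcb1b (0.35), Abcb4 (-0.19), Abcb6 (-0.27), Abcb8 (-0.53), Abcb9 (-0.27), Slc17a3 (0.0868) and Slc17a9 (-0.12). Of these, the adjusted p passed 0.05 for Abcb8 within the second ZT12 set alone (0.0379). Of the 30 level calls, 24 held in every fit that left out 1 array. At an offset of 50 the differences of Abcg4, Abcb4 and Slc17a4, genes near background, were -0.12, 0.09 and 0.07, smaller than with an offset of 16 but still past the threshold.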
